A study of Mus musculus with 10 samples.

Results

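The genes described here are 10 genes of acute phase and oxidative defence in the gut epithelium: Saa1, Saa2, Saa3, Lcn2, Duox2, Duoxa2, Nox1, Nos2, Gpx2 and Dmbt1. They were taken by symbol from the 31053 genes in the count matrices, and all 10 were present. Single-cell RNA-seq was performed on 10 mouse libraries, with 8 libraries of organoids and 2 of colonic crypts, and 25204 cells were kept by the authors. Organoids were grown in Matrigel from crypts of the proximal small intestine of mice aged 6 to 12 weeks. All organoid media shared a base that held N-acetylcysteine, an antioxidant. In the 3 libraries of ENR-organoids (passages 2, 7 and 3) the added factors were Noggin, EGF and R-Spondin 1. In the 3 libraries of Hyper-organoids (passages 1, 6 and 3) they were the growth factors FGF2 and EGF, conditioned medium with R-Spondin 1, and the small molecules Pexmetinib, LDN193189 (a BMP receptor inhibitor), GSK-3 Inhibitor XV, EPZ6438 (which blocks EZH2, a histone methyltransferase) and VPA (which blocks histone deacetylases). For -VE-organoids (2 libraries, passages 1 and 6) EPZ6438 and VPA were omitted from that medium. The replicate numbers 1, 2 and 3 stand for culture series 2, 6 and C. Series C was started from primary crypts, and the Hyper- and -VE-organoids of the other series were derived from ENR-organoids. Colonic crypts were profiled from normal mice (1 library) and from mice given dextran sulfate sodium (DSS), a chemical that injures the colonic epithelium (1 library). Per the methods, females of 8 weeks were used for the colitis model. Strains were not given for these libraries in the sources used here, and no source names the number of animals behind a library.

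Summed counts of unique molecular identifiers (UMIs, each marking 1 captured transcript) reached 89124015 to 170019527 per organoid library from 1983 to 4293 kept cells. The normal colonic library held 19906845 UMIs from 1132 cells and the DSS library 32397122 from 1933 cells. Of the barcodes of kept cells, 79 occurred in more than 1 library, with at most 5 shared by any pair. Epcam, a marker of epithelium, was at 1203 to 1506 CPM (UMIs of a gene scaled to a common library total) in the organoid libraries, while Ptprc, the pan-leukocyte marker, had 0 UMIs in 7 of them and 0.0334 CPM in ENR replicate 2. In bulk sums per library or class, fewer cells that express a gene and less RNA per cell cannot be told apart.

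Reactive oxygen and nitrogen species are part of the chemical barrier that epithelium raises against microbes. DUOX2 is a dual oxidase that releases hydrogen peroxide at the apical surface of gut epithelial cells, and it leaves the endoplasmic reticulum only together with its maturation factor DUOXA2. NOX1 is the superoxide-producing NADPH oxidase of the colonic crypt, NOS2 is the inducible nitric oxide synthase, and GPX2 is the gastrointestinal glutathione peroxidase that removes peroxides. SAA1, SAA2 and SAA3 are serum amyloid A proteins, which rise in the acute phase response and are also made by gut epithelium. LCN2 is a lipocalin that binds bacterial siderophores and is made by neutrophils as well as by inflamed epithelium. DMBT1 is a secreted scavenger-receptor protein of mucosal surfaces that binds bacteria.

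All positions are on GRCm38 with GENCODE gene models. The serum amyloid genes lie within 1 cluster on chromosome 7, with Saa3 at chr7:46711998-46715700 (minus strand), Saa1 at chr7:46740497-46742980 (minus strand) and Saa2 at chr7:46751790-46754313 (plus strand), each of 4 exons. Duox2 (chr2:122279247-122298449, minus strand, 33 exons) and Duoxa2 (chr2:122298900-122302885, plus strand, 6 exons) are transcribed away from each other from starts that lie 451 bases apart. Lcn2 lies at chr2:32384633-32388252 (minus strand), Nox1 at chrX:134086421-134221956 (minus strand), Nos2 at chr11:78920787-78960254 (plus strand), Gpx2 at chr12:76792333-76795554 (minus strand) and Dmbt1 at chr7:131032053-131121630 (plus strand). The models of Duoxa2, Gpx2, Nox1 and Dmbt1 overlap other genes (Duoxa1, Fntb, Fgfr2 and, for Nox1, Cstf2, Xkrx and Arl13a). Of the 50-base words in the Saa1 transcripts, 32.1% also occur in another gene, and for Saa2 the share was 31.8%, so the split of reads between Saa1 and Saa2 is uncertain. For Duox2 the share was 6.8% and for Gpx2 5.7%.

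Promoter windows from 250 bases before to 50 bases after the RefSeq gene start were taken from RefSeq (GRCm38.p6) for 8 of the 10 genes. That start is the start of the GENCODE model for Saa1, Duoxa2 and Gpx2, and lies inside the model by 24 bases for Saa3, 43 for Saa2, 222 for Duox2, 513 for Lcn2 and 110102 for Nox1, so the Lcn2 and Nox1 windows lie wholly within those models. The set of windows used held no entry for Nos2 and Dmbt1. Windows are shown for the divergent Duox2 and Duoxa2 pair, whose levels moved together, and for the acute phase genes Saa1, Saa2, Saa3 and Lcn2, which carry the same letters. Capitals mark C/EBP letters (TTGCNNAA) in the Saa genes and Lcn2 and AP-1 letters (TGANTCA) in Duoxa2, searched on both strands.
Duox2 promoter (chr2:122298178-122298477, minus strand): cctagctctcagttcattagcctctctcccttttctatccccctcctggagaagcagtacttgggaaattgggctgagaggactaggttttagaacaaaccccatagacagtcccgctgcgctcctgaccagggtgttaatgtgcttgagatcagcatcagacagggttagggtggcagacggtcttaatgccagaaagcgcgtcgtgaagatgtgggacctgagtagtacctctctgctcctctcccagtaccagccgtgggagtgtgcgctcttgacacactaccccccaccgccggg
Duoxa2 promoter (chr2:122298650-122298949, plus strand): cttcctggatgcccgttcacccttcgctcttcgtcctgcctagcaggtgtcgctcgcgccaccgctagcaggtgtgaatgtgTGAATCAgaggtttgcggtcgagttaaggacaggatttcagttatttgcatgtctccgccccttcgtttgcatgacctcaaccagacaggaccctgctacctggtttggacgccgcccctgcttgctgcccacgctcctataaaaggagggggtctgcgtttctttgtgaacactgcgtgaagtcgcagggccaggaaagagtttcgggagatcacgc
Saa1 promoter (chr7:46742931-46743230, minus strand): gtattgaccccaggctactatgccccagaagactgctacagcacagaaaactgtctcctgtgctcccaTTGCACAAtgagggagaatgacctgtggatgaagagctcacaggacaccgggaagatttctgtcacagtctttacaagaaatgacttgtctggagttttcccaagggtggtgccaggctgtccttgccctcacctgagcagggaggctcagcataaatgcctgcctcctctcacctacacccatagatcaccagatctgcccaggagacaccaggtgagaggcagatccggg
Saa2 promoter (chr7:46751583-46751882, plus strand): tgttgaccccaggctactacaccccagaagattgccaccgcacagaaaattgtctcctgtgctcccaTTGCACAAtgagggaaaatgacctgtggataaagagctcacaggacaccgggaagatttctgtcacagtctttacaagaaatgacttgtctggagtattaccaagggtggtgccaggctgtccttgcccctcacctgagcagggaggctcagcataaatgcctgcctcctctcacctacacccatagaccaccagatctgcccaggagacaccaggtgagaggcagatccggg
Saa3 promoter (chr7:46715627-46715926, minus strand): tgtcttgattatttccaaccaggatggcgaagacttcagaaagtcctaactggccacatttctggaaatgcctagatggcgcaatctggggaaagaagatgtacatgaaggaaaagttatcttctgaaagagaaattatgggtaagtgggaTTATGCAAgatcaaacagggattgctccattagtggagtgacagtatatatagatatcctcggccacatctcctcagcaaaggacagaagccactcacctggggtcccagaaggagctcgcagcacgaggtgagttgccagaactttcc
Lcn2 promoter (chr2:32387690-32387989, minus strand): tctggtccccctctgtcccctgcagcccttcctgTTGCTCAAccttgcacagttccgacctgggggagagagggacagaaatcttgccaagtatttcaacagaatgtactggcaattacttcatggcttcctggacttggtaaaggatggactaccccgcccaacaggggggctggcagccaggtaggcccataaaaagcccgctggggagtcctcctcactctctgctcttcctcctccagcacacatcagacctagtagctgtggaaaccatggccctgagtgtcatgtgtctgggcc
The C/EBP letters began 182 bases before the RefSeq start in Saa1, 183 in Saa2, 99 in Saa3 (minus strand) and 216 in Lcn2, and 10.8% of 32851 RefSeq windows of this length hold them. The AP-1 letters began 168 bases before the RefSeq start of Duoxa2 and occur in 7.81% of windows. NF-kB letters occur in 1.63% of windows and were found in the Nox1 window, 91 bases before the RefSeq start on the minus strand. STAT (TTCNNNGAA, 8.3% of windows) and ARE letters (TGACNNNGC, 12.4%) were searched too and matched none of the 8 windows. The Saa1 and Saa2 windows share an unbroken run of 65 bases. A match is a description of letters only.

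The first comparison asks which of these genes changed when organoids were kept in the Hyper medium in place of ENR. The oxidase genes and Dmbt1 were lower in Hyper-organoids, whereas Gpx2, Lcn2 and Saa3 did not pass the test. Levels are given as CPM after scaling by TMM, and a call required edgeR's quasi-likelihood test to give an adjusted p (Benjamini-Hochberg) under 0.05 together with a fold of at least 2.

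Duox2 was at 3.97, 3.02 and 2.41 CPM in the 3 ENR libraries, at 3.02 and 3.31 CPM in the 2 -VE libraries and at 0.577, 0.119 and 0.148 CPM in the 3 Hyper libraries. Every Hyper library lay below every ENR and -VE library. The log2 fold change of Hyper over ENR was -3.44 (SE 0.54, edgeR adjusted p = 0.000879), and -4.56 without Hyper replicate 1. Its partner Duoxa2 was at 2.54, 2.33 and 1.66 CPM in ENR, at 1.81 and 2.03 CPM in -VE and at 0.563, 0.172 and 0.222 CPM in Hyper. As for Duox2, Hyper did not overlap the other groups, and in both genes Hyper replicate 1 (passage 1) was the highest of the Hyper libraries. The log2 fold change of Duoxa2 was -2.75 (SE 0.42, edgeR adjusted p = 0.000775), and -3.48 without Hyper replicate 1. Both genes are on the list of genes higher after injury that the study compiled from published data of other experiments, and here they were lower in Hyper-organoids. Lrg1 and Hmox1, given below as higher in Hyper than in ENR, are on the same list. The study reported this signature as a whole to be enriched in Hyper-organoids by bulk RNA-seq, and it was not tested as a whole here.

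Nox1 was at 2.68, 2.74 and 2.03 CPM in ENR, at 1.75 and 3.82 CPM in -VE and at 0.217, 0.232 and 0.443 CPM in Hyper. The -VE libraries spanned the ENR range, and Hyper lay below both. The log2 fold change of Hyper over ENR was -3.09 (SE 0.38, edgeR adjusted p = 0.000254). Nos2, which makes nitric oxide, was at 0.787, 0.568 and 0.454 CPM in ENR, at 0.145 and 0.457 CPM in -VE and at 0.034, 0.020 and 0.032 CPM in Hyper. Hyper lay below every other library, with a log2 fold change of -4.37 (SE 0.54, adjusted p in edgeR = 0.000246). Each Hyper library held 3 cells with a Nos2 UMI, so its level there rests on 3 to 5 UMIs per library.

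Dmbt1 was at 479, 486 and 680 CPM in ENR, 255 and 472 CPM in -VE and 5.16, 56.2 and 80.6 CPM in Hyper. The Hyper libraries did not overlap the others but differed among themselves by more than 10-fold, with the lowest value at passage 1. The log2 fold change was -3.54 (SE 0.82, edgeR adjusted p = 0.00641), and -4.15 without Hyper replicate 3. Dmbt1 is one of the markers by which the authors named enterocyte progenitors, a class that made up 22.2% to 34.5% of kept cells in ENR and 0.0852% to 0.107% in Hyper libraries. Enterocytes made up 9.78% to 13.1% in ENR and 0.249% to 1.65% in Hyper, and stem cells 9.75% to 14.7% and 40.0% to 44.1%. All 6 small intestinal enterocyte markers were called lower in Hyper (median log2 fold change -3.03). The part of these shifts in the library sums was not tested.

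Gpx2, in contrast, was at 1373, 1362 and 1432 CPM in ENR, 1787 and 2077 CPM in -VE and 1367, 1522 and 1645 CPM in Hyper. ENR and Hyper overlapped, with a log2 fold change of 0.12 (edgeR adjusted p = 0.234). Lcn2 was at 0.911, 0.668 and 0.716 CPM in ENR, 1.51 and 0.128 CPM in -VE and 0.916, 1.23 and 1.37 CPM in Hyper. The Hyper libraries lay just above ENR, and the -VE libraries lay on either side of both groups. The log2 fold change of 0.61 did not pass the test (edgeR adjusted p = 0.465). Saa3 was at 0.300, 0.384 and 0.406 CPM in ENR, 0.248 and 0.189 CPM in -VE and 0.271, 0.570 and 0.485 CPM in Hyper, with overlapping ENR and Hyper ranges and a log2 fold change of 0.28 (edgeR adjusted p = 0.478). Saa1 had 0 UMIs in each ENR library, 0 and 1 in -VE and 4, 0 and 2 in Hyper, and Saa2 had at most 1 UMI in any organoid library. These serum amyloid genes were below the level for a test. The floor of 3 UMIs per library leaves no fold to be given.

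In all, 5 of 8 tested members were called between Hyper and ENR, all lower, against 4.75% of the 16037 genes tested that were called lower and 18.2% called higher. Groups did not overlap for 6 of the 8 members, near the 64.4% of all genes for which that held. The p-values measure the spread between cultures of different series and passages.

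**Figure D1:**
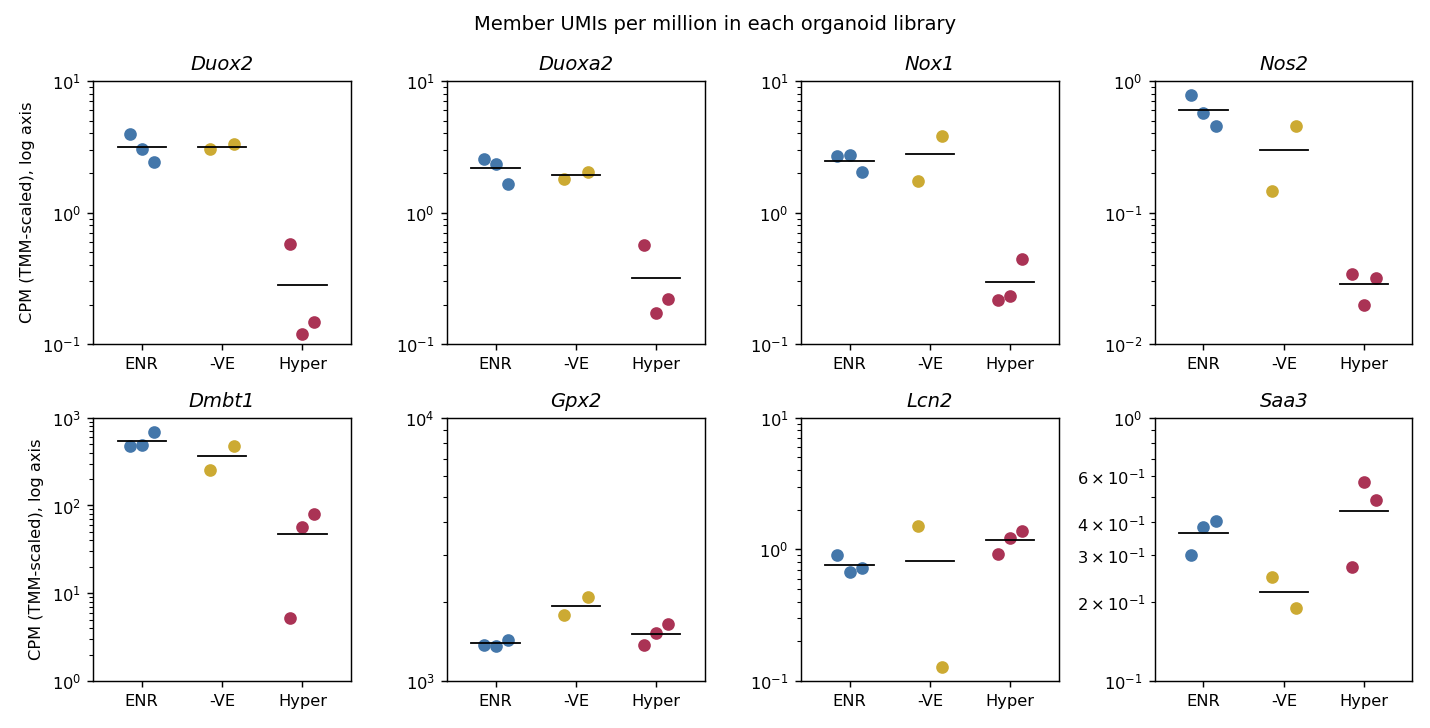
Each panel plots 1 gene's TMM-scaled CPM on a log axis in the 8 organoid libraries (points) with the group mean (line). In Duox2, Duoxa2, Nox1, Nos2 and Dmbt1 the 3 Hyper points lie below all others, while Gpx2, Lcn2 and Saa3 show no such gap.

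The -VE-organoids address whether the removal of VPA and EPZ6438 from the Hyper medium went with other levels of these genes. They did not differ from ENR by the call rule in any member, and they differed from Hyper in the same direction as ENR did for the oxidases. Against -VE, Duox2 (log2 fold change -3.46, edgeR adjusted p = 0.00175), Duoxa2 (-2.57, 0.00229), Nox1 (-3.26, 0.000494), Nos2 (-3.40, 0.00207) and Dmbt1 (-2.94, 0.0209) were lower in Hyper-organoids. The -VE level of Nos2 rested on 17 UMIs in 12 cells of replicate 1 and 75 UMIs in 34 cells of replicate 2. The Dmbt1 call was lost without -VE replicate 2 (edgeR adjusted p = 0.116), where Nox1 was at -2.57 and Nos2 at -2.31. Without Hyper replicate 1 Duox2 was at -4.57 and Duoxa2 at -3.29, and without Hyper replicate 3 Dmbt1 was at -3.56. Saa3 was called higher at 1.02 (edgeR adjusted p = 0.0495), a call that fell away in DESeq2 (adjusted p = 0.0639), when the series entered the fit as a block (adjusted p in edgeR = 0.0813) and in 7 of the 8 fits that left out 1 library. Gpx2 was lower by 0.35 on the log2 scale (edgeR adjusted p = 0.0129), which is under the fold required. Thus 5 members were called lower and 1 higher, beside 2.51% and 16.1% of all genes in these directions. Groups did not overlap for 7 of 8 members, against 67.0% of all genes.

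Between -VE and ENR, 0 members were called by edgeR and 0 by DESeq2, against 2.55% of all genes called in either direction and 3847 genes with an unadjusted p under 0.05. Gpx2 came closest, at a log2 fold change of 0.48 (edgeR adjusted p = 0.0209), and both -VE libraries lay above every ENR library. Nos2 was at -0.98 (edgeR adjusted p = 0.254) and Saa3 at -0.74 (edgeR adjusted p = 0.270). In fits that left out 1 library Nos2 was at -2.06 to -0.41. Groups did not overlap in 3 of 8 members, against 45.7% of genes. The 3 contrasts share libraries and are not independent of each other.

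The classes of the deposited annotation show where these genes were on. Levels within classes are CPM of the class total without TMM scaling, unless stated. Within ENR-organoids, Duox2 was highest in goblet cells at 5.43 ± 1.51 CPM (SD, n = 3) and lowest in enterocytes at 0.649 ± 0.580 CPM, with stem cells at 4.09 ± 1.69 and transit amplifying cells at 3.27 ± 0.899 CPM. Goblet, stem and Paneth cells (3.94 ± 3.18 CPM) did not differ beyond their spread. In -VE-organoids Duox2 was at 8.23 and 7.50 CPM in goblet cells, at 5.57 and 8.18 CPM in Paneth cells, and at 61.04 and 21.2 CPM in revival stem cells, a class of 8 and 17 cells there with 20 and 13 Duox2 UMIs. Duoxa2 in ENR was at 1.92 ± 0.699 CPM in goblet cells and 2.84 ± 0.925 CPM in enterocyte progenitors, which did not differ beyond their spread. Nox1 was at 4.35 ± 0.324 CPM in stem cells and 3.24 ± 0.618 CPM in transit amplifying cells, and at 0.451 ± 0.369 CPM in goblet cells and 0 UMIs in Paneth cells of ENR-organoids. Nos2 was at 0.743 ± 0.281 CPM in transit amplifying and 0.577 ± 0.243 CPM in stem cells. Barcodes left out by the authors held Nos2 at 1.54, 1.17 and 1.44 CPM in the ENR libraries, above both class means. The part of such RNA in the class values was not tested. Paneth cells of all 5 ENR and -VE libraries held 0 Nos2 UMIs, but their class sums of 680345 to 1344572 UMIs were too small to tell this from the stem cell level. Dmbt1 was highest in enterocyte progenitors at 935 ± 38.6 CPM, a class named by it in part, and at 24.4 ± 2.81 CPM in Paneth cells. Gpx2 was between 1240 and 1474 CPM on average in stem, transit amplifying, goblet, enteroendocrine and enterocyte progenitor cells of ENR-organoids, and at 833 ± 19.0 CPM in enterocytes and 533 ± 105 CPM in Paneth cells.

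Members were also compared within classes. The study assembled its stem class from separate clusters for Hyper- and ENR-organoids, so cells of 1 class name need not be alike in both. In stem cells, Duox2 was at 6.04, 3.08 and 3.14 CPM in ENR, 3.13 and 2.27 CPM in -VE and 0.582, 0.058 and 0.110 CPM in Hyper. Nox1 was at 4.11, 4.22 and 4.71 CPM in ENR, 1.74 and 3.94 CPM in -VE and 0.161, 0.231 and 0.303 CPM in Hyper. Both genes were thus lower in every Hyper library than in any other stem class sum. The log2 fold changes over ENR were -4.10 for Duox2 (edgeR adjusted p = 0.000661), -3.06 for Duoxa2 (0.000838), -4.34 for Nox1 (2.83e-05), -4.63 for Nos2 (0.000411) and -2.10 for Dmbt1 (0.0319). Dmbt1 in stem cells was at 227, 163 and 274 CPM in ENR and 7.19, 57.7 and 102 CPM in Hyper, and its value was -2.88 without Hyper replicate 3. Its call was lost in 4 of the 8 fits that leave out 1 library, with edgeR adjusted p up to 0.0909. Without Hyper replicate 1 the values were -5.69 for Duox2 and -3.94 for Duoxa2. These 5 calls of 8 tested, all lower, stand beside 2.8% of genes called lower in stem cells.

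Against -VE, the stem class gave 4 lower members (Duox2 at -3.48, Duoxa2 at -2.67, Nox1 at -3.73 and Dmbt1 at -2.29 on the log2 scale), beside 1.76% of genes, and Lcn2 as the 1 higher member, beside 14.7%. Lcn2 in stem cells was at 0.581 and 0.080 CPM in -VE and at 1.16, 1.31 and 1.79 CPM in Hyper, a log2 fold change of 2.03 (edgeR adjusted p = 0.0236), with ENR at 1.01, 0.649 and 1.18 CPM, which overlapped the Hyper range. Without -VE replicate 1 it was 3.97. The call was lost without -VE replicate 2 (edgeR adjusted p = 0.122) or without Hyper replicate 3 (edgeR adjusted p = 0.0519), and the Dmbt1 call in DESeq2 (adjusted p = 0.0560) and without -VE replicate 2 (-1.70). Without Hyper replicate 1 the values were -5.06 for Duox2 and -3.54 for Duoxa2, without Hyper replicate 3 -3.08 for Dmbt1, and without -VE replicate 2 -3.04 for Nox1. Over all alternative fits of this contrast, 6 values of members lost their call, and not all of them are listed here. Nos2 did not pass (-1.65, edgeR adjusted p = 0.152), with -VE stem cells at 0.032 and 0.107 CPM. Its value was -2.20 to -0.60 in fits that left out 1 library. Between -VE and ENR stem cells, 0 members were called by edgeR, against 0.503% of genes and 2465 genes with an unadjusted p under 0.05. Nos2 was at -2.98 there (edgeR adjusted p = 0.0622), and at -4.00 to -2.41 in fits that left out 1 library.

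Transit amplifying cells gave the same 5 lower members as stem cells, with Duox2 at -3.53, Duoxa2 at -2.49, Nox1 at -3.43, Nos2 at -4.91 and Dmbt1 at -3.32 on the log2 scale, beside 3.78% of genes called lower. In goblet cells 4 members could be tested, and Duox2 (-2.83, edgeR adjusted p = 0.000278), Duoxa2 (-2.46, 0.0498) and Dmbt1 (-3.72, 0.000418) were lower, beside 2.64% of genes. In enteroendocrine cells Dmbt1 was lower (-3.74, edgeR adjusted p = 0.00692) and Gpx2 was not called, beside 1.44% of genes called lower. All 6 small intestinal enterocyte markers were called lower in goblet cells too (median -3.23), as were 2 of 4 in enteroendocrine cells. In stem cells 2 of the 6 were lower and 1 higher (median -0.04), and in transit amplifying cells 2 were lower and 1 higher (median -1.18). Barcodes left out by the authors held Dmbt1 at 227 to 349 CPM in ENR and 12.8 to 78.2 CPM in Hyper libraries. These barcodes are not known to hold free RNA only, with median mitochondrial shares of 59.0% to 60.7% in ENR and 40.8% to 51.2% in Hyper libraries. The part of free RNA in the Dmbt1 values of these classes was not tested. In enterocytes no call was made. Dmbt1 in enterocytes was at 499, 456 and 708 CPM in ENR and at 696 and 420 CPM in Hyper replicates 2 and 3, with a log2 fold change of -0.03 (edgeR adjusted p = 0.953). Hyper replicate 1 had 7 enterocytes, with Dmbt1 at 14.1 CPM, and was not fitted. In this class 0 of 4 tested members were called by edgeR, against 10.9% of genes in either direction and 3951 genes with an unadjusted p under 0.05. Gpx2 was not called in any class. Scaled by the TMM factors of the libraries, it overlapped between Hyper and ENR in stem cells (1464 to 1713 against 1471 to 1555 CPM) and transit amplifying cells (1318 to 1656 against 1373 to 1488 CPM), and lay lower in Hyper in enteroendocrine cells (906 to 1117 against 1153 to 1512 CPM) and, over 2 fitted Hyper libraries, in enterocytes (612.6 to 732 against 820 to 907 CPM). Whether the Dmbt1 change differed between enterocytes and stem cells was not tested.

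**Figure D2:**
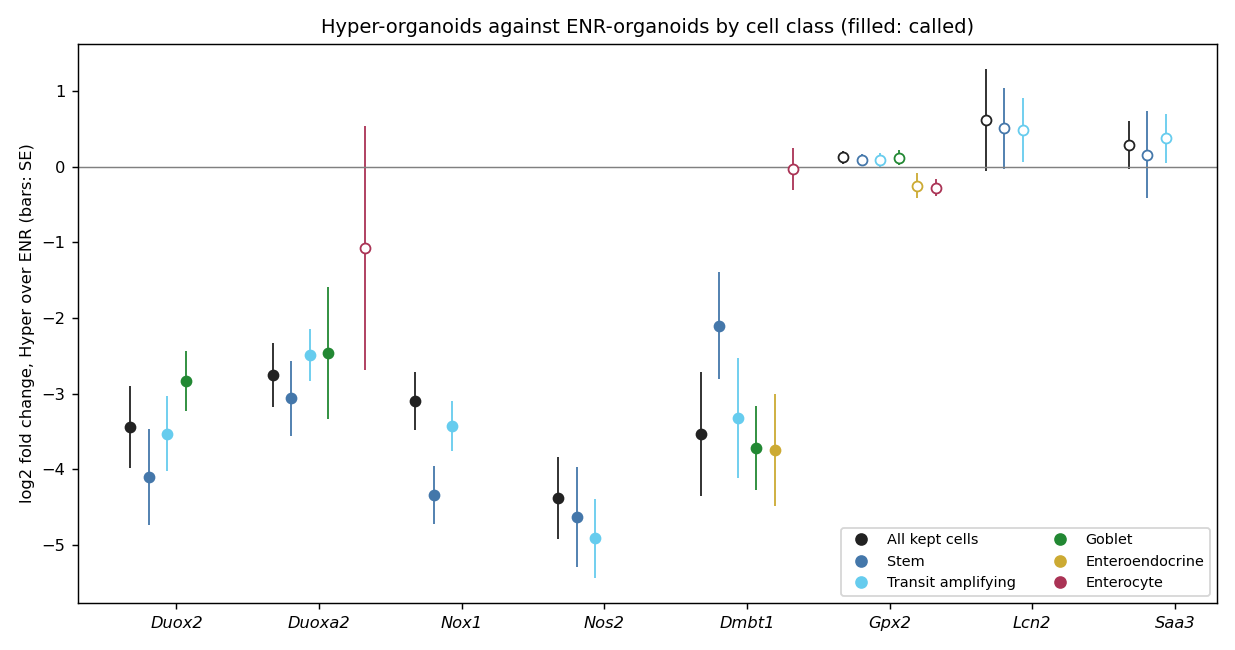
Points give the edgeR log2 fold change of Hyper over ENR for each tested gene in all kept cells and in 5 classes, with bars for the SE and filled points for calls. Duox2, Duoxa2, Nox1, Nos2 and Dmbt1 lie below -2 in stem and transit amplifying cells, Gpx2 lies near 0 in all classes, and Duox2 in enterocytes is left out because its SE exceeded 3.

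Some values rested on few cells. In the -VE library of passage 1, 8 cells of the revival stem class held 112 of the 177 Lcn2 UMIs, with 67 and 42 UMIs in its highest cells, and without this class that library was at 0.535 CPM. In the -VE library of passage 6, enterocytes stood above the other enterocyte sums, with Duox2 at 6.31, Duoxa2 at 8.08, Nox1 at 3.54 and Nos2 at 4.04 CPM, while -VE replicate 1 was at 0.944 CPM for Duox2 and 1.10 CPM for Duoxa2. In Hyper-organoids the share of cells with a Duox2 UMI, after thinning each cell to 10000 UMIs, was 0.618%, 0.116% and 0.267%, against 2.95%, 2.23% and 1.99% in ENR and 2.96% and 2.99% in -VE. Unthinned shares were 2.81%, 0.483% and 0.605%, against 12.6%, 11.2% and 6.81% and against 11.8% and 9.57%. Median depth was 38999 to 48042 UMIs per cell in Hyper and 38174 to 47868 in ENR, and no organoid class is known to lack Duox2, so a background share could not be set.

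Other genes of these pathways were read from lists of known members. Among NADPH oxidase genes other than the members, Duoxa1 (2.27) and Cyba (1.44) were higher on the log2 scale in Hyper than in ENR. Duoxa1 codes for the maturation factor of DUOX1, overlaps the Duoxa2 model on the other strand and moved in the opposite direction, though it was at only 0.105 to 0.183 CPM in Hyper. Of 24 peroxide and glutathione genes, Gpx8 (8.32), Sod3 (2.17) and Hmox1 (1.22) were higher and Nqo1 (-1.36) lower, shares near or below the 18.2% and 4.75% of all genes. Of other acute phase genes, 6 of 8 were called higher and 0 lower, beside the 18.2% of all genes called higher, led by Lrg1 (7.16), Lbp (6.20) and Hpx (2.87). Lbp was at 0.380, 5.16 and 3.54 CPM in the Hyper libraries and at most 0.0518 CPM in ENR. Of 25 receptors and regulators upstream, Il1r1 (1.75) and Irf1 (1.502) were higher, and of 2 tested cytokines 0 were called. Against -VE, 4 of the 8 acute phase genes were higher, among them Lbp (4.73), and Socs3 (1.14) was the 1 higher regulator of 25, beside 16.1% of all genes. Between -VE and ENR 0 genes of these lists were called. The medians of the log2 fold change over all genes were near 0, so the members' median of -2.92 between Hyper and ENR and the 1.73 of the other acute phase genes stood on either side.

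The DSS comparison asks how the same genes stood in injured colonic crypts. With 1 library in each group there is no test, and intervals are exact Poisson intervals that cover counting error only. Nos2, Lcn2 and Nox1 differed most, and no member was at least 2-fold lower. Duox2 was at 49.2 CPM in normal and 108 CPM in DSS colonic crypts (ratio 2.20, 95% interval 2.05 to 2.37), and Duoxa2 at 64.5 and 114 CPM (ratio 1.77). The direction of this pair depended on which barcodes were counted. With all deposited barcodes the log2 difference of CPM + 1 was -0.31 for Duox2 and -0.49 for Duoxa2, and with the mean of single-cell CPM it was 0.18 and -0.26. Nox1 was at 5.68 and 33.5 CPM (ratio 5.91, interval 4.86 to 7.23). Nos2 was at 1.41 and 24.3 CPM, from 28 and 788 UMIs (ratio 17.3, interval 11.9 to 26.2). Gpx2 stood at 609 and 1365 CPM (ratio 2.24) and Dmbt1 at 1360 and 2380 CPM (ratio 1.75). Among acute phase genes, Saa3 was at 5.02 and 17.6 CPM (ratio 3.51, interval 2.83 to 4.38) and Saa1 at 766 and 1002 CPM (ratio 1.31), a direction that also turned with all deposited barcodes (log2 difference -0.08). Saa2 was at 1.61 and 2.01 CPM from 32 and 65 UMIs, with overlapping intervals. Lcn2 was at 0.452 CPM from 9 UMIs in normal and 60.01 CPM from 1944 UMIs in DSS colonic crypts. By the ratio of CPM + 1, 6 of 10 members were at least 2-fold higher, beside 3.55% of 12440 genes.

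Cell types other than epithelium moved with the DSS library, and their values stand beside the members. All 7 neutrophil markers were at least 2-fold higher, with a sum of 0.653 CPM in normal and 2592 CPM in DSS, and S100a8 had 0 and 27607 UMIs. All 7 macrophage markers were higher (5.53 and 165 CPM), as were all 5 B and plasma cell markers (5.58 and 391 CPM), while the T cell sum was 243 and 182 CPM and the epithelial sum 16142 and 14205 CPM. Of 5 stromal and endothelial markers 3 were higher (22.96 and 59.4 CPM), and of 6 colonocyte markers 3 were lower (9770 and 6533 CPM). Of 4 Paneth cell markers of at least 1 CPM, 2 were lower, Ang4 (815 and 3.64 CPM) and Itln1 (25.4 and 1.30 CPM). The other 2 were higher, Mmp7 (1.41 and 10.4 CPM) and Lyz1 (0.100 and 1.88 CPM), so their sum of 842 and 17.2 CPM mostly follows Ang4. With the Ptprc-rich clusters and other Ptprc-positive cells left out (901 normal and 1457 DSS cells), Lcn2 was at 0.053 and 13.3 CPM, and at 6.52 CPM in DSS with cluster 22, described next, also left out. In the former set Saa3 was at 5.21 and 16.7 CPM, Nox1 at 5.90 and 35.8 CPM and Nos2 at 1.38 and 25.8 CPM. There 6 members were at least 2-fold higher, but the share of all genes past 2-fold was not computed for this set, so the count has no background.

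**Figure D3:**
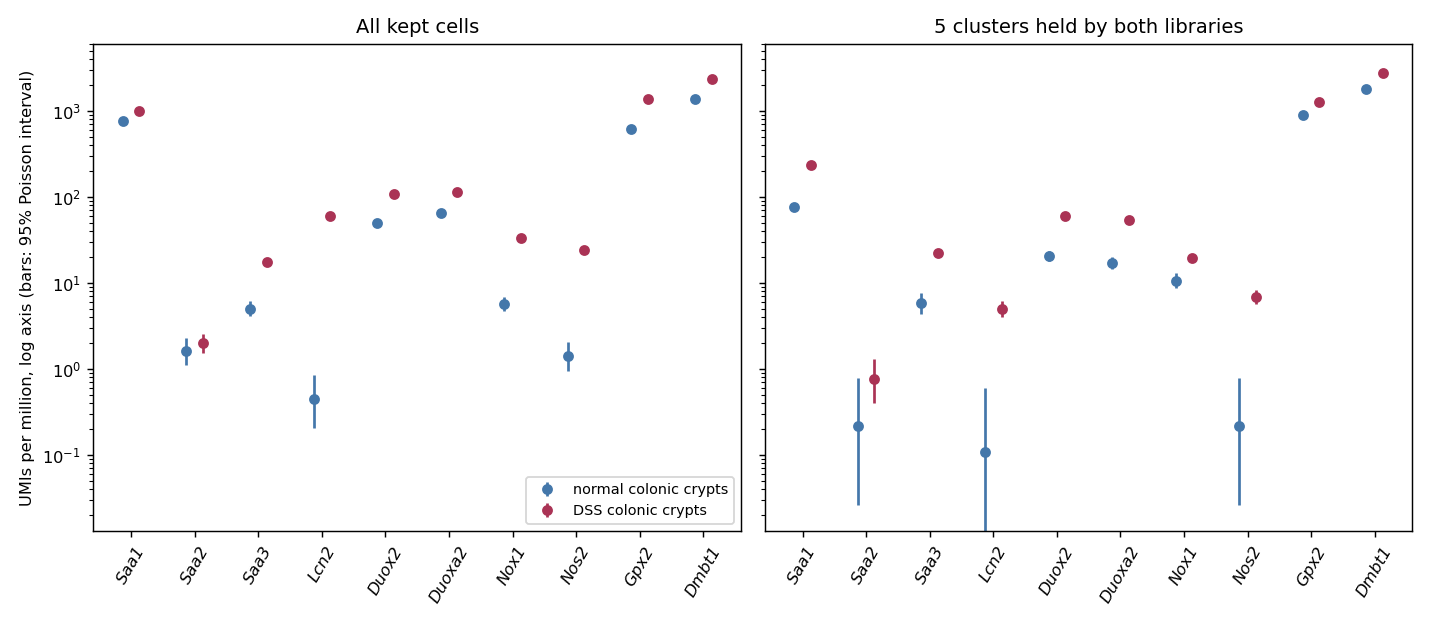
Points give CPM of the 10 genes on a log axis in the normal and DSS colonic libraries, with exact Poisson 95% intervals as bars, for all kept cells and for 5 clusters held by both libraries. Lcn2 and Nos2 show the widest gaps in both panels, and the Saa2 intervals overlap in both panels.

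Clusters of the deposited annotation are given by number, with cluster 2 labelled stem. A cluster held mostly by 1 library may be that library and not a cell type. Lcn2 in DSS was concentrated, with 86.8% of its UMIs in clusters 15 and 22, which hold 4.50% of cells and in which 100% of cells held S100a8, a calprotectin subunit abundant in neutrophils. Ptprc was in 68.2% of the cells of cluster 15 and 4.76% of those of cluster 22, and Epcam in 40.9% and 100%, so cluster 22 carried both kinds of marker and was not among the Ptprc-rich clusters. Clusters 4 and 13, with Epcam in 100% and 94.4% of cells, had Lcn2 at 19.2 and 26.7 CPM. There the ratio of Lcn2 to S100a8 UMIs was 1.63 and 3.89, against 0.058 and 0.084 in clusters 15 and 22. Other Epcam-rich clusters had lower ratios, at 0.639 in cluster 1, 0.722 in clusters 2 and 5, 0.471 in cluster 10 and 0.333 in cluster 17. Ratios were 0.125 in cluster 20, 0.0645 in cluster 6, 0.0276 in cluster 7 and 0 in cluster 9. Cluster 16 was at 0.160, where Epcam was in 93.0% of 43 cells and 3 cells held all 37 Lcn2 UMIs. The highest ratio, 9.0, was in cluster 18, from 9 Lcn2 UMIs and 1 S100a8 UMI. That cluster was Ptprc-rich, with Cd3e in 87.9% of DSS cells, so the ratio does not set epithelial clusters apart. In the normal library 8 of the 9 Lcn2 UMIs were in cluster 18.

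Saa1 and Saa2 were highest in clusters rich in Aqp8, a marker of mature colonocytes. In the normal library cluster 12 (Aqp8 in 96.8% of cells) had Saa1 at 11186 CPM and held 45.8% of its UMIs, and cluster 3 (Aqp8 in 28.5%) held 39.7% at 1003 CPM. In the DSS library cluster 7 (Aqp8 in 74.8%) was at 8968 CPM with 60.2% of the UMIs, and cluster 17 was highest at 16286 CPM. Krt20, another marker of mature colonocytes, did not follow Saa1 in every cluster, since cluster 1 held Krt20 in 73.7% of normal and 71.0% of DSS cells with Saa1 at 41.6 and 56.7 CPM. The sum of the listed colonocyte markers, Aqp8 among them, did not follow Saa1 either. In cluster 6 it was 36920 CPM in normal and 26931 CPM in DSS, with Saa1 at 307 and 964 CPM. The sum was 22297 CPM in normal cluster 12 and 7224 CPM in DSS cluster 7. Saa2 was spread like Saa1, with 71.9% of its normal UMIs in cluster 12 and 50.8% of its DSS UMIs in cluster 7. Saa3 had 59.4% of its DSS UMIs in cluster 6, at 101 CPM against 30.3 CPM in the same cluster of the normal library. By level it was higher in DSS cluster 17, the highest for Saa1, with 37 Saa3 UMIs in 57 cells among 188446 UMIs of all genes. Cluster 6 held 339 among 3363583. Cluster 21, in which 95% of DSS cells held the macrophage marker Csf1r, had Saa3 at 160 CPM.

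Duox2 and Duoxa2 stayed together across clusters. In the normal library cluster 12 was at 862 CPM for Duox2 and 1214 CPM for Duoxa2 and held 54.9% and 59.0% of their UMIs. In the DSS library clusters 9, 4 and 7 held 21.2%, 19.4% and 16.7% of Duox2 UMIs and 26.4%, 20.99% and 16.1% of Duoxa2 UMIs. Of 897 DSS cells with a Duox2 UMI, 626 also held Duoxa2 (69.8%), against 15.6% of the other cells, and in the normal library the shares were 52.9% and 17.2%. Nos2 was found in 28.4% of the Duox2-positive DSS cells and 2.90% of the others. These shares were not thinned, so they contain differences in depth between cells.

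Nox1 and Gpx2 were concentrated in other clusters. In the DSS library 63.8% of Nox1 UMIs and 42.2% of Gpx2 UMIs were in cluster 4, at 139 and 3732 CPM, a cluster with 230 DSS and 11 normal cells, in which Epcam was in 100% of DSS cells and the stem cell marker Lgr5 in 10.0%. In the normal library cluster 2 held 54.0% of Nox1 and 32.7% of Gpx2 UMIs. Nos2 in DSS was spread over cluster 4 (33.6% of its UMIs), cluster 9 (28.8%) and cluster 10 (12.3%). Dmbt1 was broad, with cluster 1 holding 31.5% of its DSS and 26.9% of its normal UMIs.

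**Figure D4:**
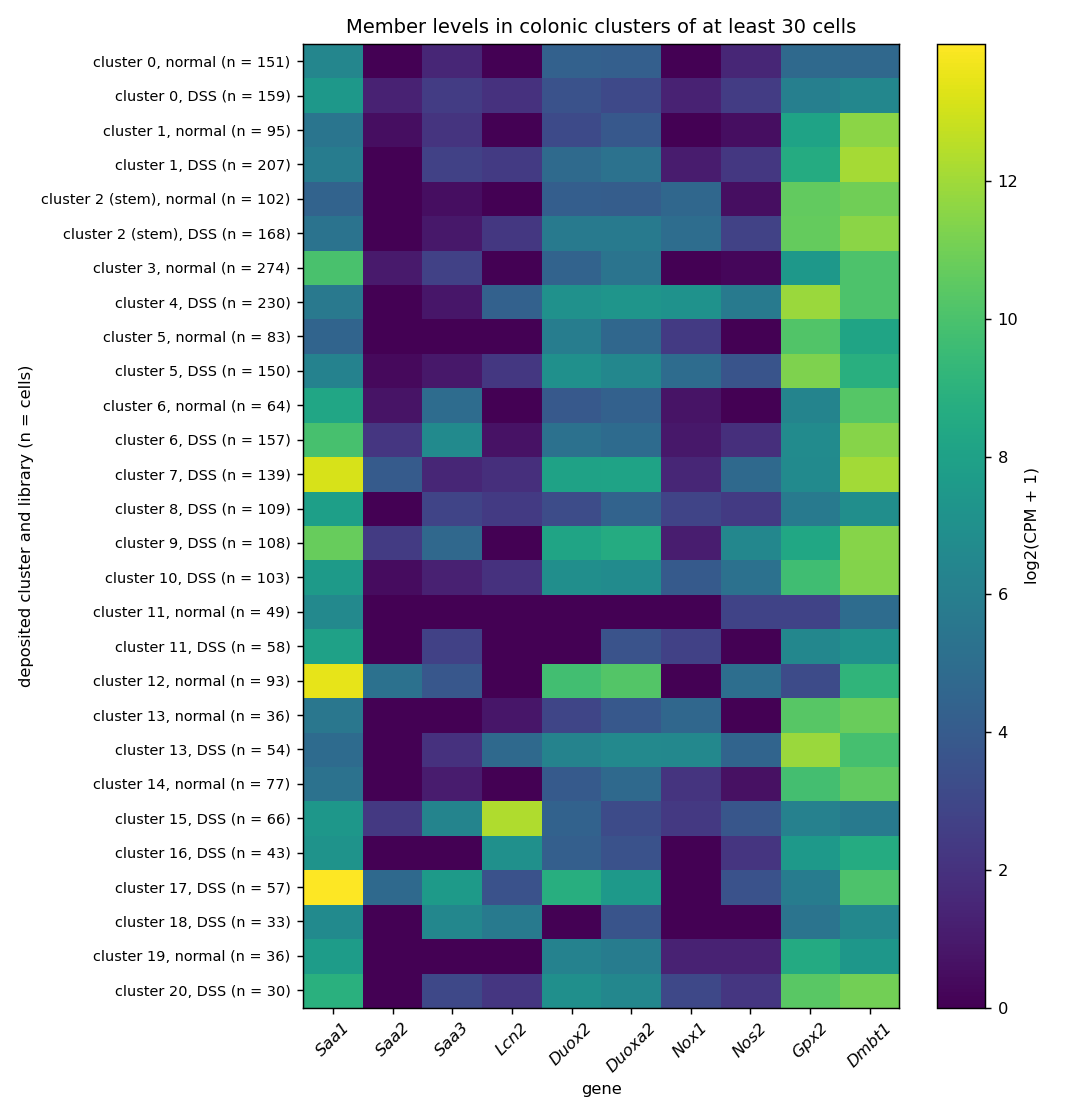
Colour gives log2(CPM + 1) of the 10 genes (columns) in each colonic cluster of at least 30 cells in a library (rows, with the cell number). Saa1 is brightest in cluster 17 of DSS and cluster 12 of normal colonic crypts, Lcn2 in cluster 15, Nox1 in clusters 4 and 13 of DSS, and Gpx2 in clusters 4, 5 and 13 of DSS.

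Clusters 1, 2, 5, 6 and 13 held at least 30 cells in both libraries (380 normal and 736 DSS cells) and were not rich in Ptprc, with Epcam in at least 94.4% of cells. In DSS, 8.33% to 17.8% of their cells held an S100a8 UMI, against 0% in the normal library, and the part of this in the values was not tested. Over their sum Duox2 was at 20.6 CPM in normal and 59.2 CPM in DSS, Duoxa2 at 17.0 and 53.9 CPM, and Nos2 at 0.216 and 6.91 CPM. Nox1 (10.7 and 19.7 CPM), Gpx2 (899 and 1267 CPM) and Dmbt1 (1800 and 2754 CPM) had smaller ratios there than in the whole libraries. Saa1 was at 75.7 and 233 CPM, Saa3 at 5.82 and 22.2 CPM and Lcn2 at 0.108 and 5.04 CPM.

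In cluster 2, the stem cluster, Duox2 was at 17.5 CPM in normal and 54.3 CPM in DSS (ratio 3.11, interval 2.22 to 4.43) and Duoxa2 at 16.3 and 54.0 CPM (ratio 3.32, interval 2.35 to 4.798). Nox1 was at 24.8 and 30.6 CPM, with an interval of the ratio from 0.893 to 1.72, and Gpx2 at 1611 and 1618 CPM, with an interval from 0.964 to 1.05. In this cluster 4 of 10 members were at least 2-fold higher, beside 6.17% of genes. In cluster 5, where 95.2% and 98.0% of cells held the goblet mucin Muc2, Nox1 was at 4.14 and 29.3 CPM (ratio 7.07, interval 3.31 to 18.0) and Nos2 at 0 and 39 UMIs, and 7 members were at least 2-fold higher beside 7.37% of genes. In cluster 13 Duox2 was at 6.60 and 76.3 CPM and Nox1 at 24.8 and 92.3 CPM, whereas Dmbt1 was at 1761 and 922 CPM (ratio 0.523, interval 0.487 to 0.562). There 7 members were at least 2-fold higher beside 10.5% of genes. Clusters 1 and 6 had 5 and 6 such members, beside 3.75% and 6.66% of genes. These counts include members with overlapping intervals, namely Nox1 in cluster 1 (0 and 6 UMIs), Lcn2 in cluster 5 (0 and 13), Saa2 (1 and 12) and Nos2 (0 and 9) in cluster 6 and Saa3 in cluster 13 (0 and 4). Clusters 0 and 11, which hold T cell markers, also had 6 such members each, beside 17.8% and 25.7% of genes, with Saa1, Gpx2 and Dmbt1 as those whose intervals did not overlap, so the number of members past 2-fold does not set epithelial clusters apart. Duox2 was not among the 6 in either.

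Shares of cells with a UMI were compared after thinning each cell to 5000 UMIs, which left out 357 of 1132 normal and 674 of 1933 DSS cells. The thinned share was 15.1% in normal and 34.4% in DSS for Duox2 (28.5% and 46.4% before thinning), 1.94% and 10.8% for Nox1 (5.12% and 16.3%) and 0.903% and 8.42% for Nos2 (1.502% and 14.7%). Median depth was 18375 and 16051 UMIs per cell. In cluster 0, described next, unthinned shares were 7.28% and 4.40% for Duox2, 0% and 0.629% for Nox1 and 0.662% and 1.89% for Nos2.

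Cluster 0, in which 92.5% to 96.7% of cells held the T cell marker Cd3e, was set beside these values. Epcam was nonetheless in 34.4% of its normal and 61.6% of its DSS cells. Whether epithelial UMIs there came from free RNA, doublets or mixed cells was not tested. Cluster 0 had a median of 3693 UMIs per cell in normal and 3924 in DSS, against 22966 and 19469 in cluster 2. Per cell, cluster 0 held 0.318 and 0.736 Saa1 UMIs and cluster 2 0.510 and 0.810, so Saa1 in the stem cluster was near the level of cluster 0. Duox2 was at 0.073 and 0.044 UMIs per cell in cluster 0, against 0.422 and 1.11 in cluster 2. For Nox1 the values were 0 and 0.006 against 0.598 and 0.625, and for Nos2 0.007 and 0.019 against 0.010 and 0.119. Nos2 in normal stem cells rested on 1 UMI.

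Other genes of the same pathways were also read in the colonic libraries, as counts past 2-fold among genes of at least 1 CPM, beside 3.55% of all genes that were at least 2-fold higher. Among NADPH oxidase genes other than the members, Cybb (5.73-fold on the CPM + 1 scale) and Ncf4 (3.61), which code for parts of the phagocyte oxidase, were higher in DSS, as were Cyba (2.29) and Noxa1 (2.06). Of 23 peroxide and glutathione genes only Slc7a11 (5.73), the cystine transporter subunit, passed. Of 6 other acute phase genes, Hp, Lrg1 (22.2), Steap4 (7.52) and Lbp (5.97) were higher, with Hp at 0 UMIs in normal and 36.0 CPM in DSS. Cytokines above the level included Il1b (87.4), Tnf (3.04), Il17a, Il22 and Osm as higher and Ifng as lower, and of 24 receptors and regulators 0 passed. Cybb, Ncf4, Hp and Il1b are also expressed by the neutrophils and macrophages whose markers were higher, and their part was not tested.

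Likeness of pattern was described by Pearson's r of log2(CPM + 1) over 28 colonic cluster-by-library sums and 45 organoid class-by-library sums, which share libraries and depth. In the colon, 9978 genes were compared. Saa1 was nearest to Lamb3 (0.916), Cyp2d9 (0.903) and Aqp8 (0.893), and Saa2 to Creb3l3 (0.882), Aqp8 (0.882) and Saa1 (0.873). Saa3 was nearest to Abca12 (0.861), Il10rb (0.807) and Fth1 (0.800). For Lcn2 the nearest were the myeloid genes S100a9 (0.887), Retnlg (0.874) and Lyz2 (0.868). Duox2 and Duoxa2 were nearest to each other (0.892), followed by Dio1 (0.833) and Tmc5 (0.819) for Duox2 and by Muc13 (0.834) and Gm14137 (0.819) for Duoxa2. Nox1 was nearest to the stem cell factor Ascl2 (0.846), Slc12a2 (0.798) and Gpx2 (0.788). Nos2 had the weakest likeness, to Duox2 (0.668), Gpr137b (0.656) and Ly6g (0.634). Gpx2 was nearest to Fam57a (0.943), Kcne3 (0.940) and Mecr (0.900), and Dmbt1 to 2610528A11Rik (0.954), Cmbl (0.947) and Plpp2 (0.945).

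In organoids, where 9804 genes were compared, the likeness was highest for the 2 members of high level, with Dmbt1 nearest to Slco2b1 (0.905), B4galnt1 (0.904) and Ndufaf8 (0.887) and Gpx2 to Mfsd10 (0.845), Pfas (0.839) and Pes1 (0.833). Duoxa2 was nearest to Tnfsf13os (0.798), L1cam (0.796) and Sri (0.754), and Duox2 to Crls1 (0.715), Gm1123 (0.698) and Adcy6 (0.687), so the pair did not share its nearest genes there. Nox1 was nearest to Zbtb38 (0.768), Far2 (0.741) and Tfam (0.740), and Nos2 to Capg (0.656), Fam83h (0.653) and Erbb2 (0.643). Lcn2 was nearest to Pdgfa (0.778), Hsd17b10 (0.736) and Sdr39u1 (0.719), and Saa3 to Wipf1 (0.706), Bcam (0.681) and Nptn (0.678).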

How the data were processed

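The libraries were made with a 10x 3' kit, and the deposited matrices hold raw UMI counts per gene and barcode that the authors made with Cell Ranger (3.0.0 per the labels), with cells then kept and classes named by the authors in Seurat 3.1.4. The deposited annotation kept 25204 of 52386 barcodes, of which 1375 had under 1500 genes. Doublets were not called here. Counts of kept cells were summed per library and per class. Organoid sums (89124015 to 170019527 UMIs) were tested with edgeR 4.0.16 (R 4.3.3; TMM, quasi-likelihood test, all 3 groups in 1 fit) over 16037 genes with Benjamini-Hochberg adjustment, and calls needed an adjusted p under 0.05 and a 2-fold change. Classes needed 20 cells in a library. DESeq2 1.42.0 was an alternative. The code was tested on simulated data. Colonic libraries (19906845 and 32397122 UMIs) were compared as CPM without a test, and intervals and floors cover counting error only. P-values measure only the spread between libraries. Deviations from the group means of Hyper and ENR libraries correlated at 0.192, 0.170 and 0.436 within a culture series. Between series these correlations were -0.292 to 0.129, and taking deviations from a group mean pushes them down. The series was taken as the pairing in an alternative fit, while the main fit held the group only. The series is read from the sample titles, and for -VE only 2 pairs exist. All members are named, with up to 3 genes each way from each pathway list and the 3 genes most like each member that could be compared, beside further listed genes chosen after their values were seen. The members and lists were chosen with earlier results of these data known. Alternatives changed 1 choice at a time. Some results on listed NADPH oxidase genes are not reported here, and no counts are given for that list.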

Additional observations from a re-analysis of the deposited data

Results flagged for a closer look

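UMIs of the members were also present in the barcodes that the authors left out (2495 in the normal and 2813 in the DSS colonic library). In them Saa3 was at 41.0 CPM in DSS and 12.7 CPM in normal, Lcn2 at 6.74 and 0 CPM, Nox1 at 6.67 and 0.482 CPM, Nos2 at 34.8 and 8.41 CPM, Gpx2 at 342 and 92.7 CPM and Dmbt1 at 2059 and 685 CPM. Saa1 (2527 and 2675 CPM), Duox2 (239 and 376 CPM) and Duoxa2 (235 and 420 CPM) were lower in DSS there. In the left-out organoid barcodes the lowest Hyper library was at 0.457 CPM for Saa3, against 0.154 to 0.185 CPM in ENR, and at 794 CPM for Gpx2, against 397 to 466 CPM. The Saa3 values rest on 4 to 6 UMIs per library. The median share of mitochondrial UMIs in these barcodes was 59.0% to 60.7% in ENR and 40.8% to 51.2% in Hyper libraries, and its part in these values was not tested.

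Gpx2 in CPM without TMM scaling was higher in every Hyper than in every ENR library in stem and transit amplifying cells and lower in enterocytes, where the highest Hyper library was at 769 CPM. With TMM scaling the stem and transit amplifying ranges overlapped, and enteroendocrine cells were lower too, so this pattern depends on the scaling. Gpx2 was not called in any class, and the difference between classes was not tested.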

How the results depend on the processing

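Between Hyper and ENR, 5 members were called in every fit that left out 1 library and in DESeq2. With a filter of 10 CPM in 2 libraries only Dmbt1 and Gpx2 could be tested, and 1 member was called against ENR and 1 against -VE. Without a minimum fold, 1 member (Gpx2) was called between -VE and ENR. Leaving out 1 library gave 4 to 6 members called between Hyper and -VE, 0 to 1 between -VE and ENR, 4 to 5 in stem cells between Hyper and ENR, 3 to 6 in stem cells between Hyper and -VE and 0 to 1 in stem cells between -VE and ENR. With culture series as a replicate block, Saa3 between Hyper and -VE was not called (0.90, edgeR adjusted p = 0.0813), and the block changed no other member call. Under the block Lcn2 (-0.24) and Duox2 (-0.15) between -VE and ENR changed sign, as did Duox2 with all deposited barcodes (-0.0030). Leaving out 1 library also turned the sign of values that were not called in the main fit. Ranges between -VE and ENR were -2.58 to 0.97 for Lcn2, -0.15 to 0.22 for Duox2 and -0.51 to 0.62 for Nox1. Between Hyper and -VE the range was -0.36 to 3.19 for Lcn2. In stem cells it was -0.28 to 0.57 for Saa3 between Hyper and ENR and -0.37 to 0.65 for Dmbt1 between -VE and ENR. In the colon, Duox2 was at -0.31 with all deposited barcodes, and 5 to 7 members were at least 2-fold higher across alternatives over the libraries, including the pooled matched clusters and the removal of clusters with S100a8 in every cell, which were chosen after seeing the data. Shares of all genes were not computed for these colonic alternatives. Over all genes, the 10 CPM filter gave 800, 528 and 166 calls (Hyper against ENR, Hyper against -VE and -VE against ENR) in place of 3675, 2985 and 409, and no minimum fold gave 9111, 7629 and 1264. The causes were not tested.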
